A study of Mus musculus with 5 samples.

Results

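The 10 genes described here encode subunits of the transcription factor AP-1 and other products of immediate early genes. They are Jun, Junb, Jund, Fos, Fosb, Fosl1, Fosl2, Egr1, Atf3 and Ier3. They are given by name, a choice made with earlier results of these data known, and their probes were found by matching the accession of each array probe to the mouse genes of RefSeq. All 10 had at least 1 probe, with 12 probes in all, out of 18327 genes that the arrays named in this way. All 10 were also among the 15446 genes whose signal was well above background on at least 1 array, which is the scanner software's own call and the filter used for every comparison.

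Gene expression was measured on 5 one-colour Agilent mouse arrays, 1 for each condition. ES was the mouse embryonic stem cell line E14, which carried red fluorescent protein and hygromycin resistance. Hepa1-6 was a mouse hepatoma line that carried green fluorescent protein and neomycin resistance. EHe was a hybrid of both, made by fusing the cells and selecting colonies with both drugs, and EHeD7 and EHeD14 were the hybrid cells after 7 and 14 days of differentiation. The study asked how far the hybrid went back towards the hepatoma once it differentiated. The medium of ES and EHe held leukemia inhibitory factor, 10% serum replacement and 1% fetal bovine serum. The labels give a monolayer on gelatin with 15% fetal calf serum for EHeD7 and EHeD14, and 10% fetal calf serum for Hepa1-6. Serum and cell state therefore moved together across the 5 conditions and cannot be told apart. The study's methods describe differentiation as embryoid bodies in serum replacement without naming the array samples, so the serum of EHeD7 and EHeD14 rests on the labels. With 1 array per condition no test between conditions was possible, and no p-value is given.

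AP-1 is a dimer of basic leucine zipper proteins. A Jun protein pairs with itself, with a Fos protein or with a member of the ATF family, and the pair binds short DNA sites next to genes of growth, migration and matrix turnover. Many of these subunits are encoded by immediate early genes, which cells transcribe within minutes of meeting serum, growth factors or stress, without first making new protein, because the kinases of the MAPK pathway act on factors such as SRF and its partners that are already bound. In liver, Jun is needed for the growth of hepatocytes in the embryo and after loss of tissue, and Jun and Fos were first known as the cellular forms of retroviral oncogenes.

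Levels are given as log2 of the processed signal minus log2 of the 75th percentile of the same array, which lay between 1087 and 1456 signal units. Levels are compared between arrays for 1 probe, never between probes. The share of probes well above background ranged from 54.7% in Hepa1-6 to 67.6% in EHeD7. Below a log2 level of -4.84 in EHe, and of -5.30 to -6.16 on the other arrays, no probe was called well above background, and a value there is only a bound. Values not well above background are called dim. The ± after a single level is the error of the signal as the scanner software gives it, and it holds neither the spread between cultures nor that between arrays. The probes of Jun and Fos were each printed 10 times, so the spread between spots is known for both. Hepa1-6 was hybridised on a different slide from the other 4 arrays, so slide and cell line cannot be told apart. Of the 10 spike-in probes, 3 lay under the detection limit on at least 1 array. The other 7 were all lower in Hepa1-6 than in ES, by a median of -0.93 on the same log2 scale (-0.996 to -0.54), and all lower in EHe than in ES, by a median of -0.75 (-0.84 to -0.60). Of 7 markers of the pluripotent state, Pou5f1, Sox2, Zfp42, Esrrb and Tdgf1 were well above background on all arrays but Hepa1-6, and Klf4 and Dppa5a on all 5. Alb, the main secreted protein of hepatocytes, was well above background in Hepa1-6 alone.

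Promoter letters are shown for Jun, Fos, Atf3 and Ier3, which were all over 3-fold higher in EHeD14 than in EHe, and for Junb, which was not. Each run is the 250 bases before the transcription start in RefSeq for the mouse build GRCm38.p6, on the strand of the gene. Capitals mark the letters TGACG, a core of the site bound by cyclic AMP response factors, TGACNTCA, a form of the site bound by Jun with ATF proteins, or TATAA, the TATA box.

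Jun (chr4:95052223-95052472, minus strand): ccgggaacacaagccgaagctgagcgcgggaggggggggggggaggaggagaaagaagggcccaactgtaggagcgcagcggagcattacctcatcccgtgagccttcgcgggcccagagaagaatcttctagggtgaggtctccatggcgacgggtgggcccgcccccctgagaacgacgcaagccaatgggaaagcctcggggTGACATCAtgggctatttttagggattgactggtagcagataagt
Fos (chr12:85473640-85473889, plus strand): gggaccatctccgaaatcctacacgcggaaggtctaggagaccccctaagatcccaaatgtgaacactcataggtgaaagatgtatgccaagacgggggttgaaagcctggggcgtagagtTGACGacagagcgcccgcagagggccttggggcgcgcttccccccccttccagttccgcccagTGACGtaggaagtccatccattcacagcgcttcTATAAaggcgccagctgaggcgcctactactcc
Atf3 (chr1:191183334-191183583, minus strand): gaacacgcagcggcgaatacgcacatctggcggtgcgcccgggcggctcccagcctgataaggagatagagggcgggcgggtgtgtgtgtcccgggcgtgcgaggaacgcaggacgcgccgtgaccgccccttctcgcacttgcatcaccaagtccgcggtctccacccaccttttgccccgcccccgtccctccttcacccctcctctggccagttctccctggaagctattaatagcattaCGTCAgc
Ier3 (chr17:35821463-35821712, plus strand): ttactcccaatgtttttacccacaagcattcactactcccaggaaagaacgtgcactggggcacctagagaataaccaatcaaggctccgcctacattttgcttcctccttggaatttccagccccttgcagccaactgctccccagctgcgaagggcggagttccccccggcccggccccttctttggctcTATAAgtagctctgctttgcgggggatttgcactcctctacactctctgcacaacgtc
Junb (chr8:84978749-84978998, minus strand): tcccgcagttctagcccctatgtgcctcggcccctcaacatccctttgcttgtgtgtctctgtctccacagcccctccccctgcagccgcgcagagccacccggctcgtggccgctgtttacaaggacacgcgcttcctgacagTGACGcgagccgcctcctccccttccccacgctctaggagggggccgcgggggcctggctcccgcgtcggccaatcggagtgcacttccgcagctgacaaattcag

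Windows were searched for 8 of the 10 genes, all but Fosl1 and Egr1, so no motif result is given for either of these. Sites outside the windows were not searched. A gene whose window had no match, for the CArG box or another motif, may therefore still hold the site elsewhere. The first search, on both strands, was for 4 motifs: the CArG box bound by SRF, TGANTCA for AP-1, TGACGTCA for cyclic AMP response factors and GCGNGGGCG for Egr1. Of these motifs, GCGNGGGCG alone was matched, in the windows of Fosb and Fosl2, and 5.33% of 27025 gene promoters of the same length held it. The other 3 were held by 1.62%, 7.82% and 1.77% of all promoters. The 3 motifs in capitals were searched after that result was seen. TGACNTCA lay 45 to 38 bases before the start of Jun and was held by 8.55% of promoters. TGACG, which is also contained in TGACGTCA, was held by 4 of the 8 windows (Junb, Fos, Fosb and Atf3) and by 19.8% of promoters. In Fos it lay at -129 and at -66, in Junb at -106, and in Atf3 on the other strand at -7 to -3, so that the window shows its reverse complement. The TATA box began 33 bases before the start of Fos and 58 bases before that of Ier3, and 25.8% of promoters held it.

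**Figure D1:**
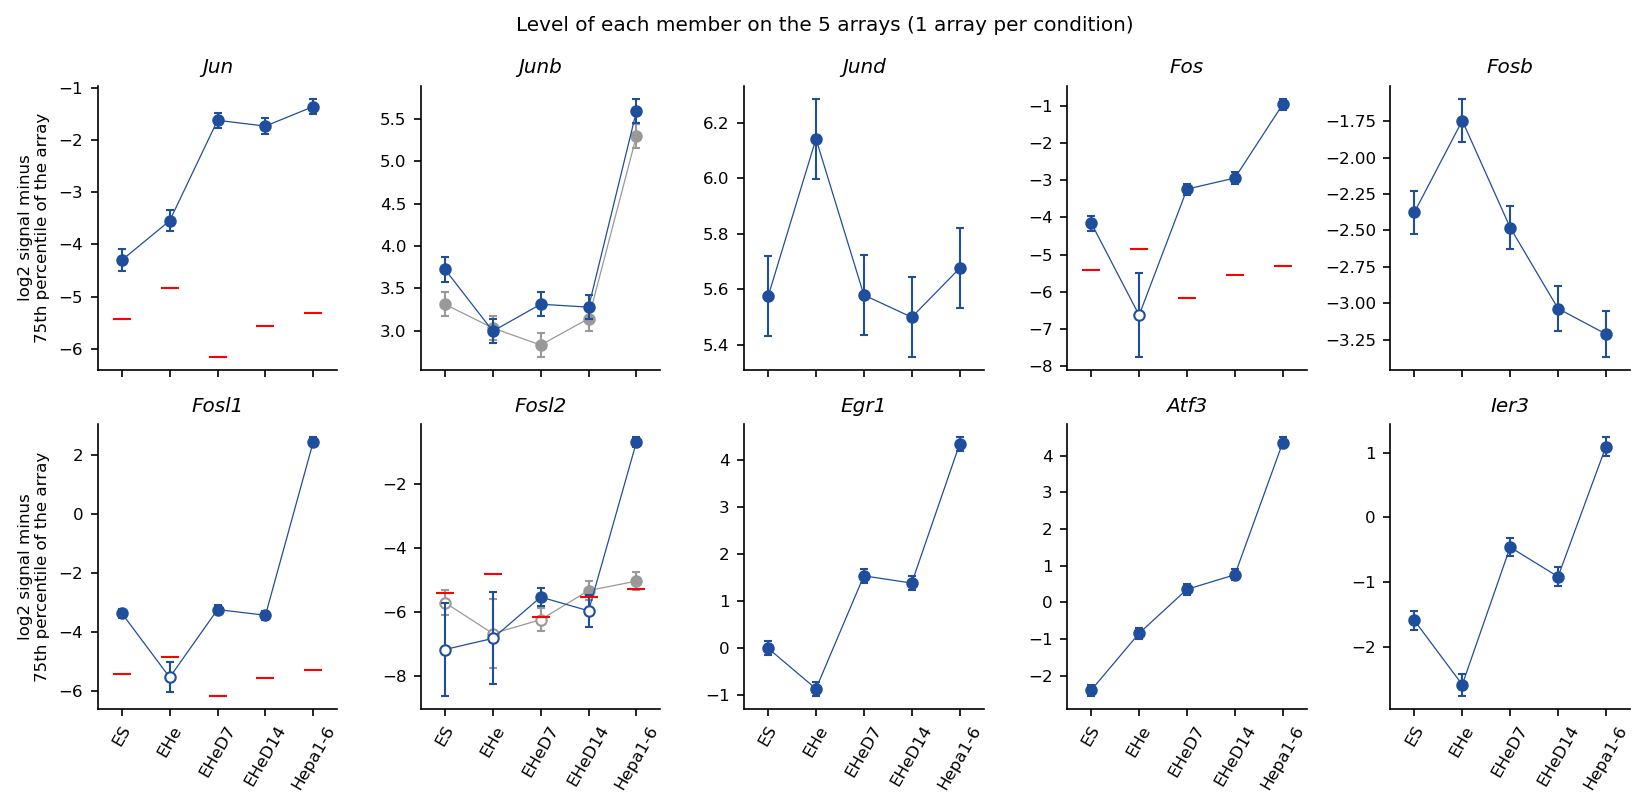
Log2 level (signal minus the 75th percentile of the array) of the 10 genes in ES, EHe, EHeD7, EHeD14 and Hepa1-6, 1 array each. Bars are the scanner software's error, open circles are not well above background, red dashes are the lowest level called well above background on that array, and grey is the other probe of Junb and Fosl2. In 8 of the 10 panels the Hepa1-6 array is highest, the exceptions being Jund and Fosb.

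Among the Jun proteins, Jun itself was low in ES and EHe and near the hepatoma in the differentiated hybrid. Its log2 level was -4.30 ± 0.22 in ES, -3.55 ± 0.20 in EHe, -1.63 ± 0.14 on day 7, -1.74 ± 0.15 on day 14 and -1.36 ± 0.15 in Hepa1-6. Both differentiated hybrids lay under the hepatoma, by less than their distance from EHe. The SD between spots of the same array was 0.06 to 0.16, and the spots of EHe, from -3.79 to -3.27, did not overlap those of EHeD7, from -1.71 to -1.43. Jun was 3.79-fold higher in EHeD7 and 3.51-fold higher in EHeD14 than in EHe. Hepa1-6 was 7.66-fold above ES but only 1.30-fold above EHeD14, a log2 difference of 0.37 with a software error of 0.21. Median centring moved that difference to 1.20, or 2.30-fold, and the 7 spike-ins differed between the same arrays by -0.49 to -0.29. EHeD14 and EHeD7 did not differ beyond 2 software errors, and neither did EHeD7 and Hepa1-6.

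Junb, which pairs with Fos proteins and often opposes Jun in the cell cycle, was set apart by the hepatoma and not by differentiation. One of its 2 probes read 3.72 in ES, 2.99 in EHe, 3.31 on day 7, 3.28 on day 14 and 5.60 in Hepa1-6. The other read 3.31, 3.03, 2.83, 3.14 and 5.30 in the same order. On both probes Hepa1-6 stood alone above the other 4 arrays, by 3.66-fold and 3.97-fold over ES and by 4.99-fold and 4.47-fold over EHeD14. Between EHe and EHeD7 the probes differed in direction, by 0.32 and by -0.20.

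Jund, the Jun protein that most cells make without a stimulus, varied least of the 10, over a range of 0.64 on the log2 scale. It read 5.57 in ES, 6.14 in EHe, 5.58 on day 7, 5.50 on day 14 and 5.68 in Hepa1-6, each ± 0.14. EHe was the highest array and the other 4 were not separated from their neighbours by 2 software errors. When arrays were centred on their median, Hepa1-6 became the highest, 0.20 above EHe, where it was 0.47 below with the 75th percentile.

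**Figure D2:**
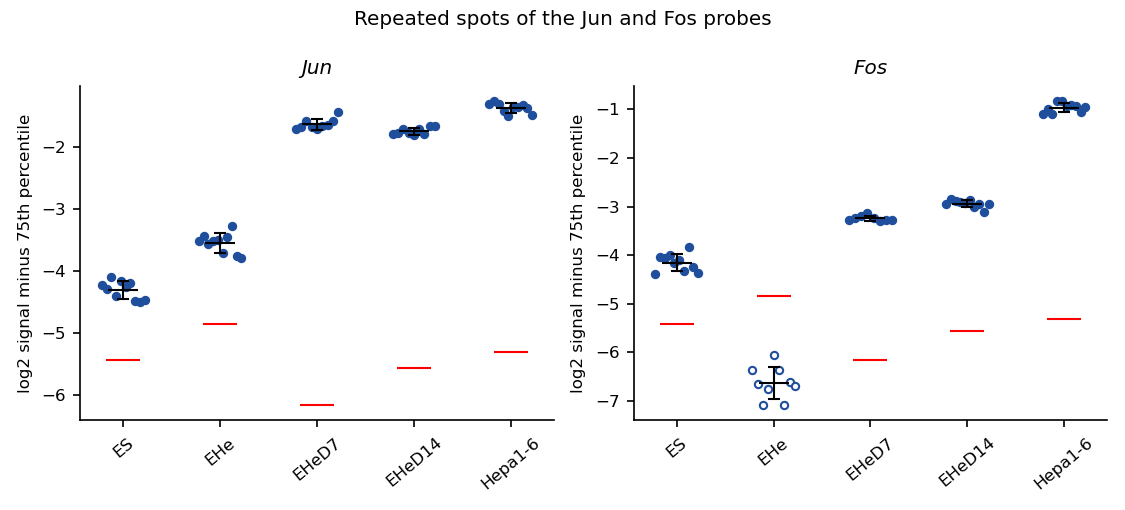
Log2 level of each repeated spot of the Jun and Fos probes on the 5 arrays, outlier spots left out, with the mean and SD between spots in black and the lowest level called well above background in red. Open circles are spots not well above background. All Fos spots of EHe lie under the red line, while those of EHeD7 and EHeD14 lie above every ES spot.

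Fos, the founding member of the Fos family, was out of range in the undifferentiated hybrid. Its level was -4.15 ± 0.20 in ES, -6.63 in EHe, where none of the spots was well above background, -3.24 ± 0.15 on day 7, -2.94 ± 0.15 on day 14 and -0.96 ± 0.15 in Hepa1-6. EHe was thus the lowest array and Hepa1-6 the highest. The spots of EHeD7, from -3.30 to -3.13, and of EHeD14, from -3.11 to -2.85, did not overlap those of ES, from -4.39 to -3.83. Since EHe gives only a bound, Fos was at least 3.03-fold higher in EHeD7 and at least 3.73-fold higher in EHeD14 than in EHe, and at least 1.61-fold lower in EHe than in ES. That bound of EHe under ES was 0.69 on the log2 scale, where the 7 spike-ins differed by -0.84 to -0.60. Against ES, which was measured, EHeD14 was 2.31-fold higher and Hepa1-6 was 9.12-fold higher. Hepa1-6 also remained 3.94-fold above EHeD14.

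Fosl1, a Fos protein without the strong activation domain of Fos that is often abundant in invasive tumour cells, marked the hepatoma. It read -3.37 ± 0.16 in ES, -5.54 in EHe, a dim value, -3.24 ± 0.15 on day 7, -3.44 ± 0.16 on day 14 and 2.44 ± 0.14 in Hepa1-6. The differentiated hybrids lay close to ES, 1.09-fold above it in EHeD7 and 1.05-fold under it in EHeD14, while Hepa1-6 was 56.0-fold above ES and 58.7-fold above EHeD14. Against the bound of EHe, Fosl1 was at least 3.02-fold higher in EHeD7 and at least 2.64-fold higher in EHeD14. EHe itself was at least 2.77-fold lower than ES.

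Fosl2, its closest relative, was mostly out of range outside the hepatoma, and its probes disagreed. The probe counted for Fosl2 was taken for its higher mean level over the 5 arrays, which rested mainly on Hepa1-6. It read -7.18 in ES, -6.84 in EHe and -5.97 in EHeD14, all 3 not well above background. In EHeD7 it read -5.55 ± 0.27 and in Hepa1-6 -0.70 ± 0.15. On it Hepa1-6 was at least 26.3-fold above ES and at least 28.9-fold above EHeD14. The other probe read -5.72, -6.69 and -6.25 in ES, EHe and EHeD7, not well above background, -5.34 ± 0.30 in EHeD14 and -5.05 ± 0.29 in Hepa1-6. It put Hepa1-6 only 1.23-fold above EHeD14 and at least 1.30-fold above ES, so the hepatoma's excess of Fosl2 rests on 1 probe.

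Fosb, the Fos protein best known from neurons, went the other way from its family. It read -2.38 ± 0.15 in ES, -1.75 ± 0.15 in EHe, -2.48 ± 0.15 on day 7, -3.04 ± 0.15 on day 14 and -3.21 ± 0.16 in Hepa1-6. EHe was the highest array, and it stayed so under median centring and both quantile settings. The other settings of the processing leave the values of Fosb unchanged, as it has 1 probe and no dim value. Fosb was 1.66-fold lower in EHeD7 and 2.44-fold lower in EHeD14 than in EHe, and 1.78-fold lower in Hepa1-6 than in ES. The last of these was -0.84 on the log2 scale, where the 7 spike-ins differed by -0.996 to -0.54 between the same arrays. It fell to 1.04-fold under median centring and to 1.29-fold under both quantile settings. Hepa1-6 and EHeD14 were not separated by 2 software errors, and their order turned under median centring and under both quantile settings.

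Egr1, a zinc finger factor that serum induces through SRF, showed the same form as Fos at levels that were measured on all 5 arrays. It read -0.0047 in ES, -0.86 in EHe, 1.53 on day 7, 1.38 on day 14 and 4.33 in Hepa1-6, with an error of 0.14 to 0.15. EHe was lowest, ES next, both differentiated hybrids were close together and Hepa1-6 was far above. Egr1 was 1.81-fold lower in EHe than in ES, 5.27-fold higher in EHeD7 and 4.74-fold higher in EHeD14 than in EHe. Hepa1-6 was 20.2-fold above ES and 7.73-fold above EHeD14.

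Atf3, a stress-induced factor that pairs with Jun proteins, stood in the order ES, EHe, EHeD7, EHeD14, Hepa1-6, in which EHeD7 and EHeD14 were not separated by 2 software errors. It read -2.40 ± 0.15 in ES, -0.85 ± 0.15 in EHe, 0.35 ± 0.14 on day 7, 0.75 ± 0.14 on day 14 and 4.36 ± 0.14 in Hepa1-6. The hybrid was already 2.93-fold above ES before differentiation, the largest difference upward between these arrays among the 10 genes. EHeD7 was 2.30-fold and EHeD14 3.03-fold above EHe, and EHeD14 was 8.87-fold above ES. Hepa1-6 was 108-fold above ES, the widest gap of the 10 genes that was measured on both arrays, and 12.2-fold above EHeD14.

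Ier3, an immediate early gene whose product acts on cell survival and on ERK signalling, read -1.59 ± 0.15 in ES, -2.59 ± 0.17 in EHe, -0.46 ± 0.14 on day 7, -0.92 ± 0.15 on day 14 and 1.10 ± 0.14 in Hepa1-6. Like Fos and Egr1 it was lowest in EHe, 1.99-fold under ES. It was 4.38-fold higher in EHeD7 and 3.19-fold higher in EHeD14 than in EHe. Hepa1-6 was 6.46-fold above ES and 4.04-fold above EHeD14. Ier3 was the 1 gene of the 10 for which all neighbours in the order of arrays were separated by over 2 software errors.

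Counted over the group, the undifferentiated hybrid lay close to ES. In EHe minus ES, 0 of the 10 were over 3-fold higher, against a background of 2.71% of all genes, and 2 were over 3-fold lower, Fos and Fosl1, against 5.64%. Both of the lower genes were dim in EHe, and with dim values raised to the limit of detection neither was past 3-fold, against 3.22% of all genes. The median of the 10 was -0.19, beside -0.14 over all genes, and it was 0.57 over the 7 genes well above background on all 5 arrays. The differences of the measured genes ran from -0.99 for Ier3 to 0.75 for Jun, with Atf3 apart at 1.55, where the 7 spike-ins above the detection limit ran from -0.84 to -0.60. The lower levels of Egr1, at -0.86, and Ier3 in EHe were thus close in size to the offset of the spike-ins. So were the bound of 0.69 for Fos and the -0.73 of Junb, whose other probe gave -0.28. The part of that offset in these levels was not tested.

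On differentiation the group stood higher. In EHeD7 minus EHe 5 of the 10 were over 3-fold higher (Jun, Fos, Fosl1, Egr1 and Ier3), against 9.37% of all genes, and 0 were over 3-fold lower, against 4.16%. In EHeD14 minus EHe the same 5 genes and Atf3 were over 3-fold higher, 6 of 10 against 9.56%, and 0 were lower, against 4.81%. The medians were 1.61 and 1.63, beside -0.08 and -0.05 over all genes. With dim values at the limit of detection the counts were 5 and 5, as the bound for Fosl1 in EHeD14 is under 3-fold, against 6.71% and 6.77% of all genes. The 7 spike-ins differed by -0.09 to 0.22 and by 0.18 to 0.38 in these comparisons.

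The count of genes past 3-fold depended on how the background was treated. With a normal-exponential background correction, which adds an offset of 50 signal units and so shrinks differences between dim spots, followed by quantile normalization, Egr1 alone stayed past 3-fold on both days, against 4.29% and 4.43% of all genes. The other genes counted above kept their direction there: Jun was at 1.25 and 1.18, Ier3 at 1.46 and 1.14, Fos at 1.00 and 1.13, Fosl1 at 0.85 and 0.77, and Atf3 at 1.41 on day 14, all as log2 differences. Atf3 and Ier3 also dropped under 3-fold on day 14 with median centring, to 1.44 and 1.52.

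**Figure D3:**
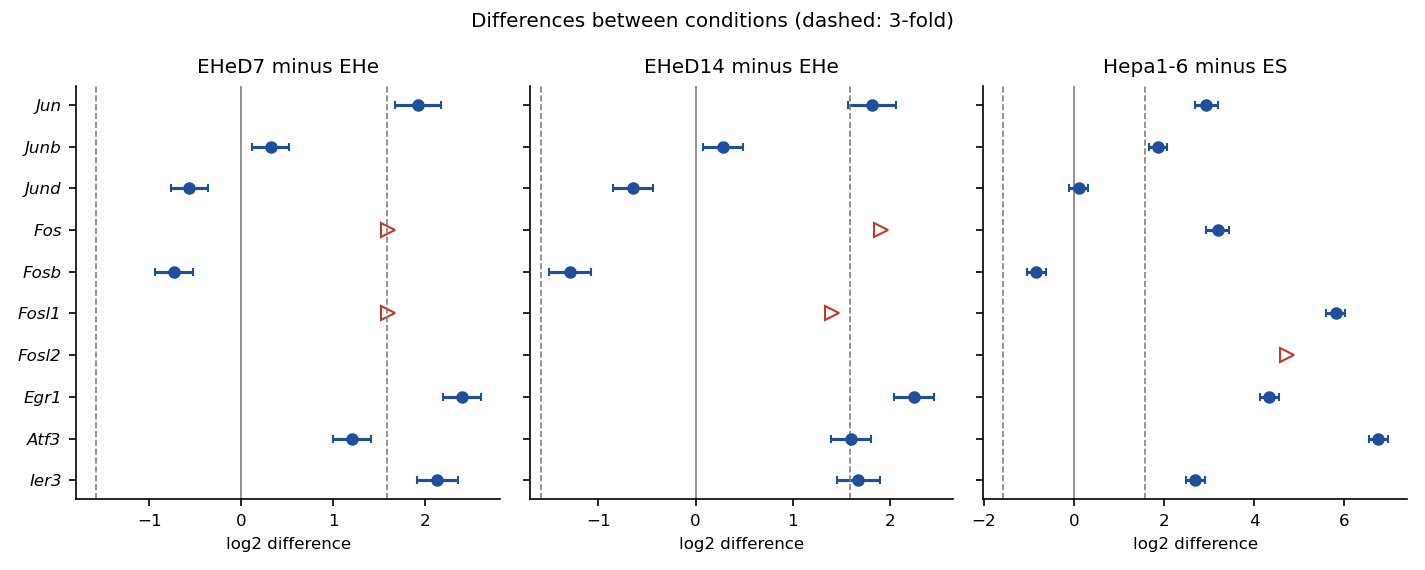
Log2 differences of the 10 genes in EHeD7 minus EHe, EHeD14 minus EHe and Hepa1-6 minus ES, on separate horizontal scales, with bars for the combined software error of both arrays and dashed lines at 3-fold. Open triangles are lower bounds against an array not well above background, and Fosl2 has no value in the first 2 panels because its signals there lay under the detection limit of EHe. Jun, Fos, Egr1 and Ier3 lie to the right of the 3-fold line in all 3 panels.

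EHeD7 and EHeD14 lay close together. In EHeD14 minus EHeD7, 0 of the 10 were over 3-fold higher, against 0.764%, and 0 were lower, against 1.18%. The largest difference among genes well above background on both arrays was that of Fosb, 1.47-fold lower on day 14. Ier3 was 1.37-fold lower and Atf3 was 1.32-fold higher.

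The hepatoma stood above ES for most of the group. In Hepa1-6 minus ES, 8 of the 10 were over 3-fold higher, against 14.1% of all genes, and 0 were over 3-fold lower, against 26.3%, the exceptions being Jund and Fosb. Fosl2 is counted here and in Hepa1-6 minus EHeD14 on its chosen probe, and its other probe was past 3-fold in neither. The median of the 10 was 3.06, where that of all genes was -0.49. All 8 stayed past 3-fold under normal-exponential correction, quantile normalization, median centring and with dim values at the limit of detection. Median centring moved the median of all genes to 0.29, so that values of Hepa1-6 were higher on that scale throughout. In Hepa1-6 minus EHeD14, 7 were over 3-fold higher, against 13.0%, and 0 were lower, against 22.6%, and Jun was the 1 gene that was past 3-fold from ES and not from EHeD14. Against EHe the hepatoma's lead was wider than against ES for Egr1 at 36.7-fold, Ier3 at 12.9-fold, Junb at 6.07-fold, Fos at least 14.7-fold and Fosl1 at least 155-fold, and narrower for Atf3 at 36.9-fold and Jun at 4.55-fold.

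How much of the distance from EHe to Hepa1-6 the differentiated hybrids had covered varied widely between the genes. On the log2 scale, Jun covered 87.9% of it by day 7 and 82.9% by day 14. Ier3 covered 57.8% and 45.4%, and Egr1 covered 46.2% and 43.2%. With EHe set at its limit of detection, Fos covered at least 41.3% and 49.0%, and Fosl1 covered at least 21.9% and 19.3%. A lower level in EHe would raise these shares, so the place of Fos and Fosl1 among the genes is not settled. Atf3 covered 23.1% and 30.7%, and Junb covered 12.2% and 10.9%. Fosb, whose distance was downward and under 3-fold, covered 50.1% and 88.1%. Jund, over a distance of only -0.47, lay beyond the hepatoma on both days, and Fosl2 is left out because it was dim in EHe and EHeD14. EHe stands in both terms of these shares, so they are a description of 3 arrays and carry no error from repeated cultures.

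The 2 comparisons EHeD14 minus EHe and Hepa1-6 minus ES have no array in common. All 6 genes of the group past 3-fold upward in the first were past it upward in the second too. Fosl1 is among them on its dim value in EHe, with a bound of 2.64-fold. The counts over all genes also take dim values as they are. Over all genes, 1477 were past 3-fold upward in the first, of which 469, or 31.8%, were past it upward in the second, and 456, or 30.9%, were past it downward.

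**Figure D4:**
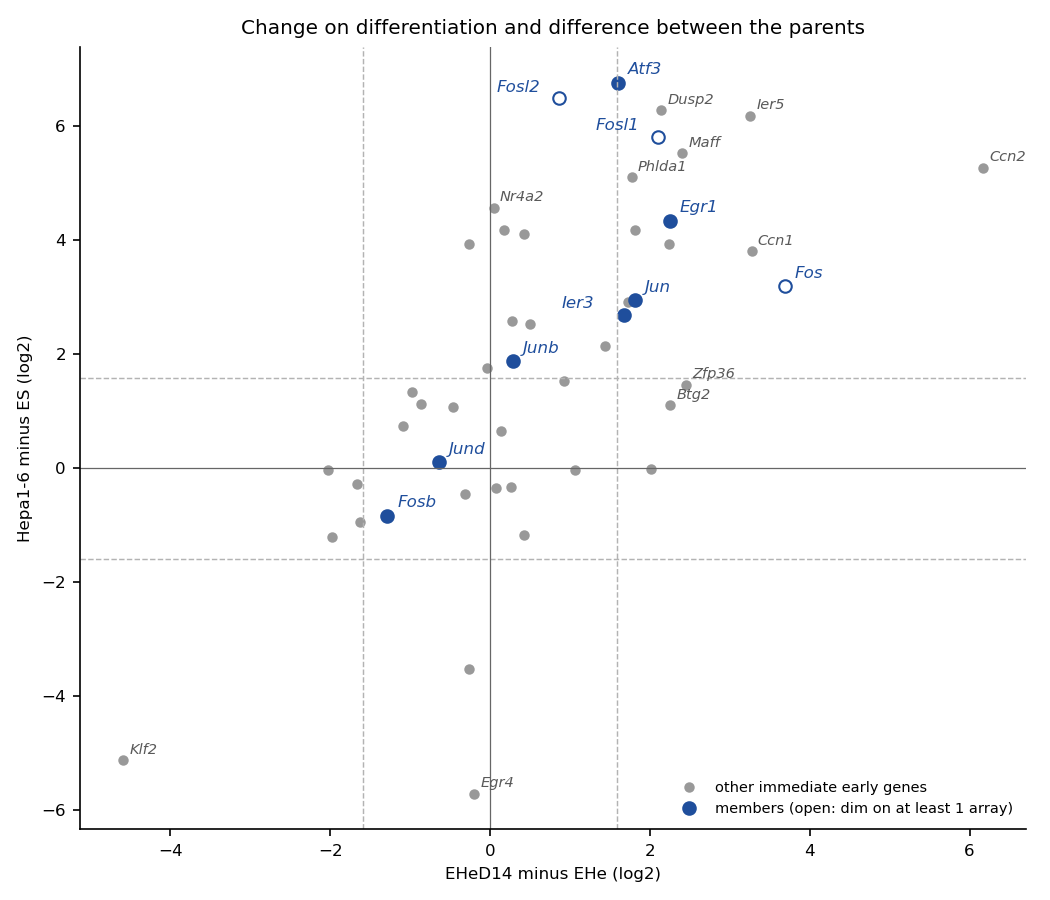
Log2 difference of EHeD14 minus EHe against that of Hepa1-6 minus ES for the 10 genes in blue and 38 other immediate early genes in grey, with dashed lines at 3-fold. Open blue circles were not well above background on at least 1 array and are placed at their own values, not at bounds. Grey points are not divided in this way. Fos, Fosl1, Egr1, Atf3, Jun and Ier3 lie past 3-fold upward on both axes. So do 9 of the grey genes, among them Ccn2, Ccn1, Ier5, Maff and Dusp2, and Klf2 lies past it in the opposite corner.

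Other immediate early genes, a list of 40 of which 38 passed the filter, went both ways. In EHeD14 minus EHe 12 were over 3-fold higher and 5 were over 3-fold lower, against 9.56% and 4.81% of all genes, and with dim values at the limit of detection 10 were higher and 5 lower. Ccn2, a secreted matrix protein, was 72.0-fold higher and its relative Ccn1 was 9.66-fold higher. Ier5 was 9.54-fold higher, Zfp36, which speeds the decay of messenger RNA, was 5.48-fold higher, and Maff, a small Maf protein, was 5.29-fold higher. Klf2, a zinc finger factor of the naive pluripotent state, was 24.0-fold lower. In Hepa1-6 minus ES 17 were over 3-fold higher and 3 were lower, against 14.1% and 26.3% of all genes. Dusp2 was 77.5-fold, Ier5 72.4-fold and Maff 45.7-fold higher. Klf2 was 34.7-fold lower and Egr4, a relative of Egr1, at least 11.1-fold lower. Of the 12 that were higher in EHeD14, 9 were past 3-fold upward between the parents and 0 downward.

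The kinases and factors upstream were counted in the same way. Of 25 MAPK and upstream kinases, 1 was over 3-fold higher in EHeD14 than in EHe and 0 were lower, against the same 9.56% and 4.81%, and that 1, Mapk10, was not past 3-fold with dim values at the limit of detection. SRF and its cofactors had 0 of 6 past 3-fold, with Srf itself 1.64-fold higher. In Hepa1-6 minus ES 3 kinases were higher and 4 were lower, against 14.1% and 26.3% of all genes. Kinases that MAPK signalling activates went both ways there, with Rps6ka4 at 8.84-fold and Rps6ka3 at 3.62-fold higher, and Rps6ka1 at 11.5-fold, Rps6ka2 at least 7.62-fold and Rps6ka5 at least 3.27-fold lower. Of the 6 SRF genes Elk3 was 8.84-fold higher, and Elk4, counted past 3-fold on its dim value in ES, was bounded at 2.24-fold, which leaves 1 of 6 at the limit of detection.

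Inhibitors that MAPK signalling induces against itself had 3 of 14 over 3-fold higher in EHeD14 than in EHe and 0 lower, against 9.56% and 4.81% of all genes. These were the phosphatases Dusp4 at 11.2-fold, Dusp10 at least 5.49-fold and Dusp2, also counted above, at 4.41-fold. In Hepa1-6 minus ES 10 of 14 were over 3-fold higher and 0 lower, against 14.1% and 26.3% of all genes. Dusp8 was at least 45.1-fold, Dusp10 17.9-fold and Dusp4 12.1-fold higher.

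The partners of AP-1 among the basic leucine zipper factors were split. In EHeD14 minus EHe 3 of 15 were over 3-fold higher and 2 lower, against 9.56% and 4.81% of all genes. With dim values at the limit of detection 2 were higher and 2 lower. Maff and Batf3, at 3.37-fold, were higher on both counts, Creb5 was bounded at 1.83-fold higher, Jdp2, a repressor that pairs with Jun, was 9.51-fold lower and Batf was 3.92-fold lower. In Hepa1-6 minus ES 8 were higher and 4, or 26.7%, were lower, against 14.1% and 26.3% of all genes. At the limit of detection 8 were higher and 3 lower, against 13.1% and 20.9%, as Batf2 was bounded at 2.48-fold lower. Among the higher were Creb5 at least 78.3-fold, Ddit3 at 50.9-fold and Maf at least 23.0-fold. Batf3 was at least 49.1-fold lower.

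Genes known as AP-1 targets had 8 of 25 over 3-fold higher and 3 lower in EHeD14 than in EHe, against 9.56% and 4.81% of all genes. With dim values at the limit of detection 6 were higher and 2 lower. Fst, an inhibitor of activin, was at least 92.4-fold higher, the gap junction protein Gja1 at least 51.0-fold, the matrix metalloproteinases Mmp2 and Mmp9 7.67-fold and at least 3.78-fold, and Tgfb1 5.83-fold higher, while the 3 lower genes were Hbegf at 3.18-fold, Spp1 at 3.12-fold and Tnc at least 2.75-fold. The median of the list was 0.20, and -0.32 with dim values at the limit of detection, so its direction was not settled. In Hepa1-6 minus ES 13 were higher and 3 lower, against 14.1% and 26.3% of all genes. The collagenase Mmp13 was at least 1258-fold, the growth factor Areg at least 689-fold, Ccl2 429-fold and Plaur 89.1-fold higher. Mmp2 and Gja1 were at least 12.7-fold and 12.2-fold lower.

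**Figure D5:**
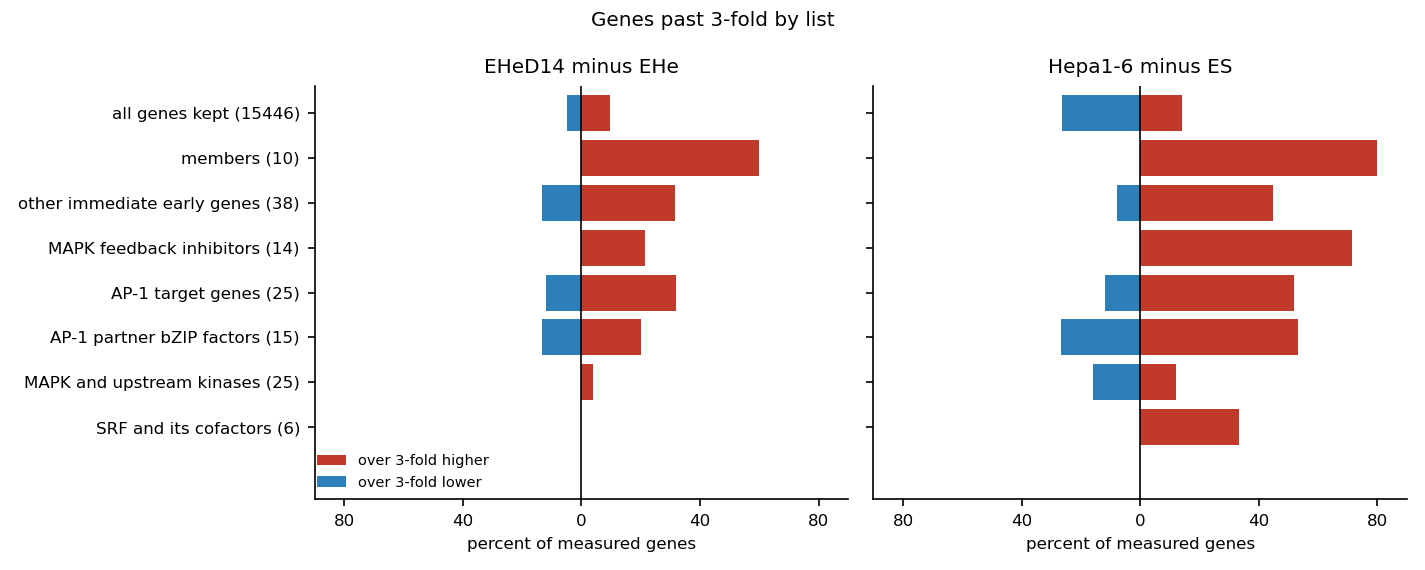
Percent of the measured genes of each list over 3-fold higher (red, to the right) or over 3-fold lower (blue, to the left) in EHeD14 minus EHe and in Hepa1-6 minus ES, with the number of genes in brackets and all genes on top. The 10 AP-1 and immediate early genes stand at 60% and 80% higher and 0% lower.

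Other lists were counted on the same arrays. Of 7 fibroblast and mesenchyme markers that passed the filter, 6 were over 3-fold higher in EHeD14 than in EHe, against 9.56% of all genes. With dim values at the limit of detection 4 were, against 6.77%. Col1a1 was 19.5-fold and Thy1 4.49-fold higher, and Dcn was dim on all 3 arrays of the hybrid. In Hepa1-6 minus ES 1 marker was higher, Dcn at least 7530-fold, and 4 were lower, against 14.1% and 26.3%. Lum was not well above background on any array. Of 7 pluripotency markers 4 were over 3-fold lower, against 4.81% of all genes, with Esrrb at 116-fold lower, while Pou5f1 was 1.10-fold higher. Hepatocyte markers had 0 of 5 past 3-fold, and Alb and Afp were dim on all 3 arrays of the hybrid. Endothelial and blood markers had 2 of 5 higher, Hba-a1 at 9.95-fold and Cd34 at 3.03-fold, and 1 lower, Pecam1, while Cdh5, Kdr and Ptprc were not well above background on any array. Of 12 stress and heat shock genes 1 was higher, Hspa1a at 3.64-fold, and 2 were lower, Chac1 at 5.70-fold and Trib3 at 5.42-fold. The part of these cell types and of handling in the levels of the AP-1 and immediate early genes was not tested.

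The shape of the 5 levels, each centred on its mean, was compared by the distance between genes on the log2 scale. Fos, Fosl1 and Fosl2 were dim in EHe and are left out of it. Among the other 7 the closest pairs were Jund and Fosb at 0.86, Egr1 and Ier3 at 1.31, and Junb and Ier3 at 1.52. Among all other genes, those nearest to Jun were Arhgap18 at 0.31, Perp at 0.35 and Eva1c at 0.37. Nearest to Egr1 were Fam114a1 at 0.34, Socs5 at 0.36 and Efemp2 at 0.36, and nearest to Atf3 were Fam107b at 0.45, Mfsd6 at 0.46 and Cpe at 0.49. Plk2, itself an immediate early gene, was nearest to Ier3 at 0.30. Junb was nearest to Alad at 0.19, Jund to Golga5 at 0.11 and Fosb to Pisd-ps3 at 0.25. With 5 arrays and 10908 candidates per gene such nearness is a description of these arrays.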

How the data were processed

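The authors deposited 1 scanner table per array from Agilent Feature Extraction 10.7.3.1 (per the submitters' processing notes). The intensity values used are the processed signal, which Feature Extraction had corrected for background before deposit, its error, and the median signal with local background. The deposited 0 or 1 calls (outlier, saturated, well above background) are the software's. The series table held the same processed intensity, with a largest relative difference of 0. The labels give Cy3 and the study's methods Cy5.

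Outlier spots (73 to 174 per array) and control spots were left out, log2 signals were centred on each array's 75th percentile, and spots of 1 probe were averaged. Of 41174 probes, 26888 were named by matching accessions to RefSeq. Each gene took the probe well above background on most arrays, then the brightest. A gene was counted as past 3-fold if at least 1 of the 2 arrays was well above background. A fold against a dim array is a bound, from the higher of that array's lowest signal well above background and the probe's own value. The scripts were tested on simulated data in which only genes well above background were changed, so calls and bounds that involve dim values were not tested. Tools were Python 3.11.15, numpy 2.4.6, pandas 2.3.3, R 4.3.3 and limma 3.58.1.

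The genes and lists were chosen with earlier results of these data known. Genes named are all 10, and from the lists those past 3-fold from EHe in the same direction on both days or over 10-fold apart between the parents, at most 6 per list and comparison, of which 1 is not reported here. Marker genes and the few genes that make up a small count were named after their values were seen. The labels do not say whether conditions came from separate cultures, and 1 array per condition limits the precision. Protein sequences were not analysed here. Alternatives were normexp with quantile normalization, quantile normalization alone, median centring, the series table, other handling of dim values and probes, and a 2-fold threshold.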

Additional observations from a re-analysis of the deposited data

How the results depend on the processing

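Each value was recomputed under up to 9 alternatives. Of 178 recomputed summaries, 152 stayed within the tolerance (a log2 difference of 0.21 for medians, 1.5 times for counts), 25 moved and 1 turned, and 3 medians in all changed sign. Of 462 differences of single genes 374 stayed within it, 88 moved and 0 of those past 3-fold turned, and of 212 that were past 3-fold 196 still were. Many of these values were fixed in advance, so the counts overstate how stable the results are. The series table repeats the main values, and the filters keep the value of each single gene. Raising dim values changes only Fos, Fosl1 and Fosl2, and a mean over probes changes only Junb and Fosl2. With normexp, EHe minus ES had 0 genes lower, against 1.44% of all genes. EHeD7 and EHeD14 minus EHe had 1 higher each there, against 4.29% and 4.43%, with medians of 0.92 and 0.95. The Hepa1-6 minus ES median was 2.43 with normexp. The offset shrinks dim differences by its construction. With only genes well above background on all 5 arrays, 7 of the group are left. EHe minus ES then had 0 lower, against 2.03% of all such genes. Its median was 0.57, where the main setting gave -0.19. EHeD7 minus EHe had 3 higher, against 4.53%, and a median of 1.20. Hepa1-6 minus ES had 5 higher, against 12.9%, and a median of 2.69. Hepa1-6 minus EHeD14 had 4 higher, against 11.6%. With dim values at the limit of detection, EHe minus ES had 0 lower, against 3.22% of all genes. Medians of EHeD14 minus EHe were then -0.64 for AP-1 partners, -0.32 for AP-1 targets and -0.26 for endothelial and blood markers. The last 2 were 0.20 and 1.12 in the main setting. Median centring gave 1 gene higher in EHe minus ES, Atf3, against 3.25% of all genes. Its medians were 3.85 in Hepa1-6 minus ES and 2.99 in Hepa1-6 minus EHeD14. Quantile normalization gave 3.42 for Hepa1-6 minus ES, -0.059 for hepatocyte markers and 0.91 for endothelial and blood markers. A mean over the probes of a gene gave a median of -0.41 in EHe minus ES. A 2-fold threshold gave 1 gene higher in EHe minus ES, Atf3, and 1 lower in EHeD14 minus EHe, Fosb. The shares of all genes at 2-fold were not counted, so neither count has a background beside it. No paired analysis was possible because the labels number no replicates. Signals near background limit Fos, Fosl1 and Fosl2 in EHe, and no array measures the spread between cultures.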
